A study of Homo sapiens with 24 samples.

Results

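RNA extracted from whole MRC5 cells under oxidative stress (OS) was set against RNA from the sucrose gradient of the same treatment, probe by probe. The members were the 12 arrays of the OS group among the 24 arrays of the series. They comprised 3 arrays of total RNA and 9 gradient arrays, which are 3 each of the untranslated, low and high pools. MRC5 is an established line of human lung fibroblasts, so every array describes 1 cell line. The OS cells had received 0.2 mM hydrogen peroxide for 2 hours, and the control cells had not. The control cells were compared only at the end, but their arrays shared the normalisation and the fitted spread of every OS test. Cells of both conditions were exposed to cycloheximide, which holds ribosomes on mRNA, shortly before harvest. Fractions 1 to 9, with free ribonucleoproteins and single ribosomes, formed the untranslated pool. Fractions 10 to 14 (2 to 4 ribosomes per transcript) formed the low pool and fractions 15 to 23 (5 or more) the high pool. The question put to the data was which transcripts were more abundant in total RNA than in any of the 3 pools, and which were less abundant than in all of them.

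A sucrose gradient sorts transcripts by the ribosomes they carry, and translated mRNAs travel with the polysomes. The material loaded on it is a detergent lysate cleared of nuclei and debris, whereas whole-cell RNA also holds nuclear transcripts. Many long non-coding RNAs (lncRNAs), small nucleolar RNAs and incompletely processed transcripts are known to reside in the nucleus. RNA removed with the cleared pellet and other differences between the extractions of whole cells and of gradient fractions cannot be told apart in this design. Every labelling reaction started from 100 ng of RNA with an oligo-dT primer, so a level is relative to the other RNAs of the same sample. The share of a cell's RNA that each pool held was not measured.

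Replicate 3 of the low pool upon OS stood apart from the other 11 arrays. On it the signal was well above background for 93.3% of lncRNA and 95.4% of mRNA probes, against 17.9% to 36.3% and 47.5% to 67.7% on the others. Its mean correlation with the other arrays of its group was 0.752, where the other 11 arrays ranged from 0.867 to 0.984. It was kept, and the counts, shares and medians that it moved are also given without it. Of the markers of lung fibroblasts, all 5 genes with a probe were detected on all 3 total RNA arrays (COL1A1, COL3A1, COL6A3, LUM and THY1). Of the epithelial markers 4 of 6 genes were detected, among them KRT8 and KRT18, while KRT5 was not. Detection was seen for 1 of 4 endothelial genes and for both blood cell genes, CD79A and 1 of 3 PTPRC probes.

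The probes behind the named non-coding RNAs of the catalog set are shown by the first 30 of their 60 bases, 5′ to 3′, so that each value below can be tied to its target. Positions are those of the whole probe on GRCh37 as the array files give them. The custom lncRNA probes come with a transcript identifier and no position, and their sequences are not shown. The files do not say whether a probe lies in an exon or an intron.
KCNQ1OT1 (chr11:2661803-2661862): cattcgatgcatgtaacaatagcacatgta
MALAT1 (chr11:65272873-65272932): aagcaagctgtttttatagcagctcttaat
MEG3 (chr14:101327286-101327345): tgtgatgcggttccaaagcacagggcttgg
GAS5 (chr1:173833049-173833108): gcctgatggagtctcatggcacaagaagat
LOC284581 (chr1:205861553-205861612): atacagaaagtactccatttcctggagctt
PRO0628 (chr20:39667260-39667319): ttcagttgtccagtgacaaggcttgctgca
LOC100216546 (chr7:104628080-104628139): taggtagctgccctccttgggcagcttttg
LOC100131564 (chr1:93803825-93803884): agtcatggtctctgaaagtaaaatgtctat

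Upon OS, more probes were called above every pool in total RNA than below every pool. Custom lncRNA probes were above all 3 pools in 661 cases, 4.84% of the 13653 tested. Of the 11236 tested probes of the catalog set, called the mRNA category although it also holds non-coding transcripts, 221 were above (1.97%). Only 5 lncRNA probes (0.0366%) and 21 mRNA probes (0.187%) were below all 3 pools. A probe was called when total RNA differed from each pool in the same direction and the largest of the 3 limma p-values passed a Benjamini-Hochberg adjusted p of 0.05. Its size is the total RNA mean minus the highest pool mean, in log2 units of quantile-normalised signal. Without replicate 3 of the low pool the counts above were 819 (5.96%) and 309 (2.74%), with 628 and 212 of the original calls among them. The counts below were then 53 (0.386%) and 53 (0.471%), and 5 and 20 of the original calls were among these.

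Size was taken against the highest of 3 pool means, so its median falls below 0 even where total RNA and pools do not differ. The negative medians given here thus do not show that transcripts were typically lower in total RNA. Over all tested probes the median of total RNA minus the highest pool was -0.59 for lncRNA and -0.63 for mRNA probes. The total RNA mean lay between the pool means for 9393 lncRNA and 8500 mRNA probes, above all of them for 3025 (22.2%) and 1518 (13.5%), and below all of them for 1235 (9.05%) and 1218 (10.8%). Leaving out replicate 3 of the low pool gave medians of -0.74 and -0.68, with 2319 (16.9%) and 1400 (12.4%) above and 2484 (18.1%) and 1550 (13.8%) below. Scaling moves this centre, and under 75th percentile scaling the medians were -0.68 and -0.98. Among called probes the median size was 2.41 for lncRNA and 2.02 for mRNA probes, and 176 and 37 of them exceeded 3. The medians of the calls made without that array were 2.22 and 1.77. All 3 total RNA arrays lay above all 9 gradient arrays for 656 of the 661 called lncRNA probes and for each of the 221 called mRNA probes. That separation held for 1363 (9.98%) and 628 (5.59%) of the tested probes of the categories.

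**Figure D1:**
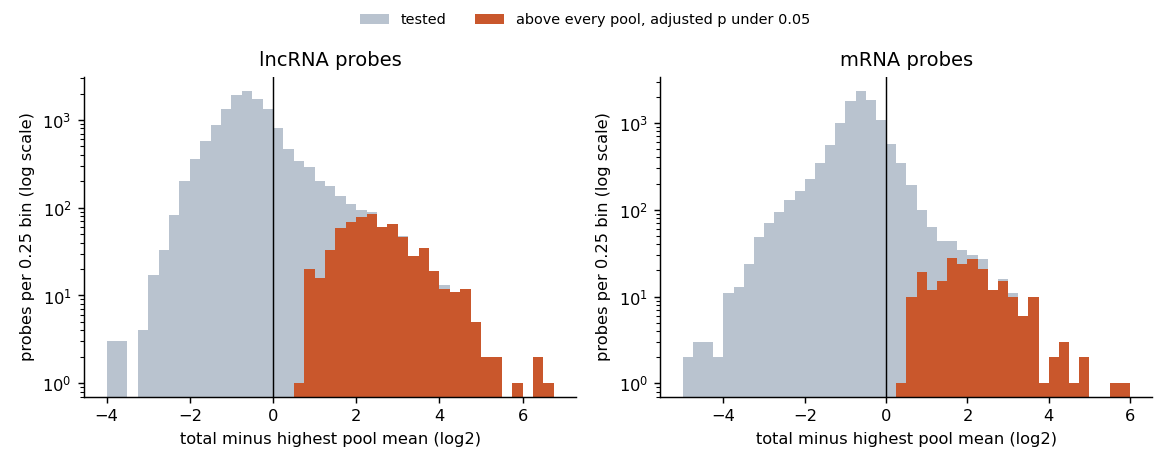
Number of tested probes (grey) and of probes called above every pool (orange) by total RNA minus the highest pool mean upon OS, in log2 bins of 0.25, for lncRNA (left) and mRNA probes (right); the vertical axis is logarithmic. Most tested probes lie below 0, and the called ones reach 6.64 for lncRNA and 5.92 for mRNA probes.

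Set against single pools, total RNA differed in both directions. It was higher than the untranslated pool for 23.0% of tested lncRNA probes and 29.9% of tested mRNA probes, and lower for 13.6% and 22.3%. Against the low pool 18.3% and 22.2% were higher and 6.69% and 18.1% lower. Against the high pool 14.4% and 15.4% were higher and 7.90% and 15.0% lower. These shares depended on replicate 3 of the low pool. Once it was left out, the low pool gave more probes lower than higher in total RNA, with 15.8% of lncRNA and 20.5% of mRNA probes higher and 18.6% and 24.5% lower. The high pool then gave 22.2% and 20.6% higher and 19.6% and 24.7% lower, so that for mRNA probes lower became the more frequent direction. The untranslated pool gave 32.2% and 38.7% higher, and 3305 lncRNA and 3151 mRNA probes lower.

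Many of the called transcripts were not seen in the gradient at all. For 392 of the called lncRNA probes (59.3%) and 87 of the called mRNA probes (39.4%), no pool was well above background on any of its arrays once replicate 3 of the low pool was set aside. Among all tested probes this was true of 617 (4.52%) and 157 (1.40%). A probe undetected in the pools could enter the test only through total RNA, so these shares describe the calls and do not support them. For such probes the difference is a lower bound, given below as "at least N-fold" against the lowest signal that counted as well above background on each pool array, without replicate 3 of the low pool. At the other end, 79 called lncRNA and 89 called mRNA probes were well above background on all 9 gradient arrays.

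The custom lncRNA with the largest size was ENST00000510619.2. Its total RNA arrays read 10.32, 10.82 and 9.86 on the log2 scale, the untranslated arrays 3.36, 3.59 and 3.39, the low arrays 3.46, 3.57 and 3.20, and the high arrays 3.31, 3.40 and 4.37. The total RNA arrays stood apart from all 9 others, and apart from replicate 3 of the low pool no gradient array was well above background. Its level was at least 22.0-fold higher in total RNA than in any pool, and the measured difference was 6.64 (adjusted p = 3.3e-07). ENST00000547717.1 followed the same pattern at no less than 17.9-fold and ENST00000556475.1 at no less than 11.9-fold. ENST00000584721.1 read 10.18, 10.37 and 9.82 in total RNA and 3.37 to 5.01 over the gradient, without overlap, a measured difference of 5.39.

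ENST00000530422.1 differed from these in that part of it entered the gradient. It read 11.96, 12.17 and 12.13 in total RNA, and 6.84, 7.03 and 7.53 in the untranslated pool, where it was well above background on all 3 arrays. The low arrays read 4.99, 4.32 and 3.12 and the high arrays 5.60, 3.02 and 5.24, so the untranslated pool was the highest pool and still 4.95 below total RNA (adjusted p = 0.000135). The remaining named lncRNAs, ENST00000556099.1, ENST00000426991.1 and ENST00000534336.1, had sizes of 5.45, 5.13 and 4.95 and were at least 9.36-fold, 8.82-fold and 5.06-fold higher. All 8 of these lncRNAs were also called without replicate 3 of the low pool. They are given by transcript identifier alone, so any of them may belong to a gene that also has a catalog probe. Most lncRNA transcripts carry a pair of probes, and of the 370 with both tested and at least 1 called, 227 (61.4%) had both called. For 125 of the others the partner's total RNA mean was also above all pool means. A probe sequence shared with another probe was present for 118 of the called lncRNA probes, whose signal cannot be given to a single transcript.

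Among lncRNAs known to be retained in the nucleus, 3 of the 6 tested probes were above every pool, beside 1.97% of the mRNA category to which they belong, and the median size was 0.99. With testing restricted to probes well above background on all 12 arrays, 1 was called. KCNQ1OT1, the antisense transcript of the imprinted KCNQ1 locus, read 10.07, 9.89 and 9.94 in total RNA. Its untranslated arrays read 5.00, 4.76 and 4.80, its low arrays 4.73, 4.71 and 3.71, and its high arrays 5.63, 4.82 and 5.45. The 3 total RNA arrays were high and all 9 gradient arrays low, with 1 high pool array above background among the 8 that remain without replicate 3 of the low pool. The difference was 4.67 (adjusted p = 1.25e-08), at least 11.9-fold.

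MALAT1, an abundant lncRNA of nuclear speckles, read 10.09, 10.65 and 10.00 in total RNA. The untranslated pool came next with 6.37, 6.99 and 7.39, followed by the low pool with 5.03, 5.16 and 4.43 and the high pool with 3.07, 5.15 and 5.66. Total RNA did not overlap any pool and exceeded the untranslated pool by 3.33 (adjusted p = 0.00398), a 10.1-fold difference. The means fell from total RNA through the untranslated to the low and high pools, and the arrays of these last pools overlapped each other.

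MEG3, an imprinted lncRNA abundant in fibroblasts, was well above background on every array. It read 15.68, 15.70 and 15.30 in total RNA, 13.52, 13.46 and 13.31 on the untranslated arrays, 12.75, 12.68 and 12.85 on the low arrays, and 12.10, 11.68 and 11.84 on the high arrays. The 4 groups followed each other without overlap, and total RNA was 4.38-fold above the untranslated pool (difference 2.13, adjusted p = 1.18e-07). The other MEG3 probes did not share this: their differences were -0.14 and -1.34 and neither was called. TUG1 had a difference of -0.17. GAS5, a host of small nucleolar RNAs whose spliced transcript is found with ribosomes, had the untranslated pool above total RNA, although its probe shares sequence with a custom probe. Its untranslated arrays read 16.74, 16.81 and 16.82, above the total RNA arrays at 16.07, 15.97 and 15.99, the low arrays at 15.54, 15.73 and 15.55 and the high arrays at 13.75, 13.68 and 13.90.

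**Figure D2:**
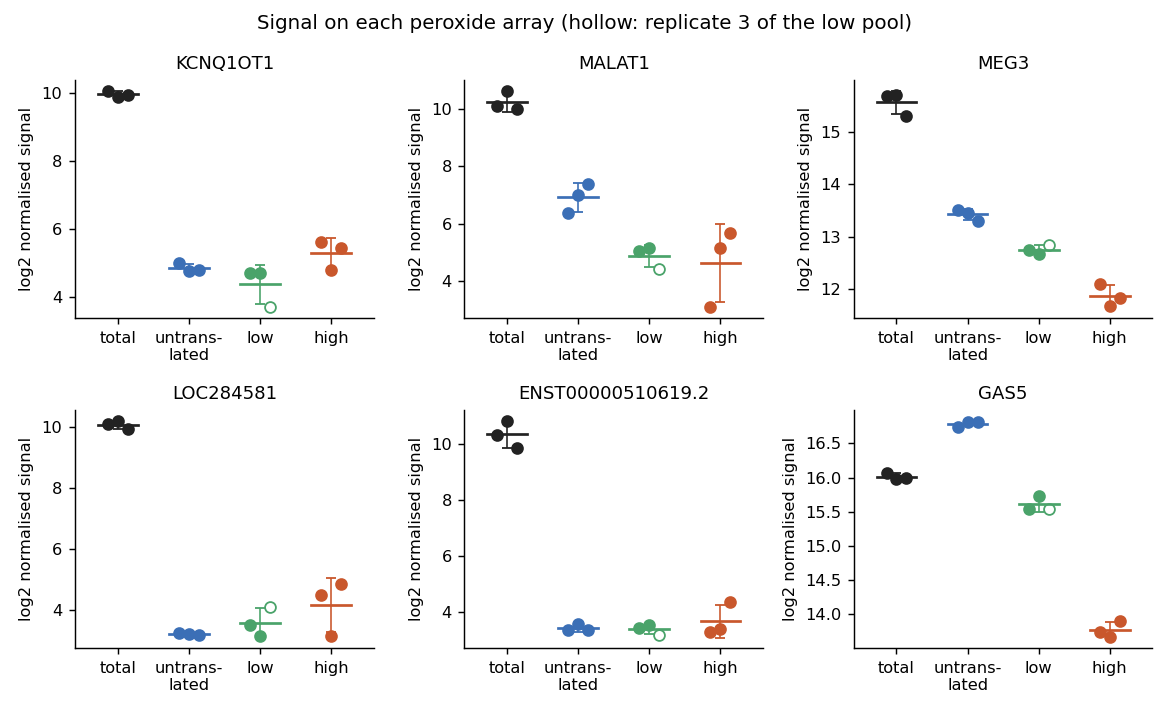
Log2 normalised signal on each of the 12 OS arrays for 6 transcripts; points are arrays, bars are means with SD (n = 3), and the hollow point is replicate 3 of the low pool. The 3 total RNA arrays lie above all gradient arrays in each panel but GAS5, where the untranslated pool is highest.

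The catalog probes with the largest sizes were mostly annotated as non-coding or carried no RefSeq accession. LOC284581 read 10.11, 10.19 and 9.92 in total RNA and 3.13 to 4.84 over the 9 gradient arrays, at least 12.8-fold (difference 5.92, adjusted p = 1.12e-08). PRO0628 read 9.01, 9.14 and 8.75 against at most 3.64, at least 5.86-fold. LOC100216546, now LINC01004, read 8.94, 9.12 and 8.67 against 2.96 to 4.80, at least 5.62-fold, whereas its other probe, some distance away, had a difference of 0.91 that was not called. LOC100131564, now CCDC18-AS1, read 8.18, 8.42 and 7.90 against 3.05 to 4.15, at least 3.31-fold. BC015643 and FLJ41170 had sizes of 4.48 and 4.45. The total RNA arrays of each of these did not overlap their gradient arrays.

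DDX17, an RNA helicase that takes part in splicing, was well above background on all low and high arrays and on 2 of 3 untranslated arrays. It read 10.67, 10.81 and 10.50 in total RNA and 9.42, 8.91 and 9.22 in the high pool, its highest, a difference of 1.47 (adjusted p = 0.0013) that under 75th percentile scaling fell to 0.60 and was not called.

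Protein-coding probes were seldom above every pool. Of 8886 tested catalog probes with a coding RefSeq accession 60 were called (0.675%), of 590 with only a non-coding accession 41 (6.95%), and of 1760 with none 120 (6.82%). Leaving out replicate 3 of the low pool gave 112, 47 and 150, and under 75th percentile scaling 27, 37 and 92. Coding probes also had the lowest share among probes well above background on all 12 arrays, where 36 of 6427 coding (0.560%), 10 of 320 non-coding (3.13%), 43 of 877 probes without an accession (4.90%) and 79 of 6023 custom probes (1.31%) were called. Among the 36 coding probes, the following were picked after their values were seen and stand for no group. RRBP1, a ribosome-binding protein of the endoplasmic reticulum, had a size of 1.41, the Golgi protein GLG1 1.07, COL7A1 0.96, the integrin subunit ITGA5 0.77, cadherin CDH11 0.76 and the lysosomal precursor PSAP 0.71. LRP10, a receptor of the LDL receptor family, had 0.61.

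**Figure D3:**
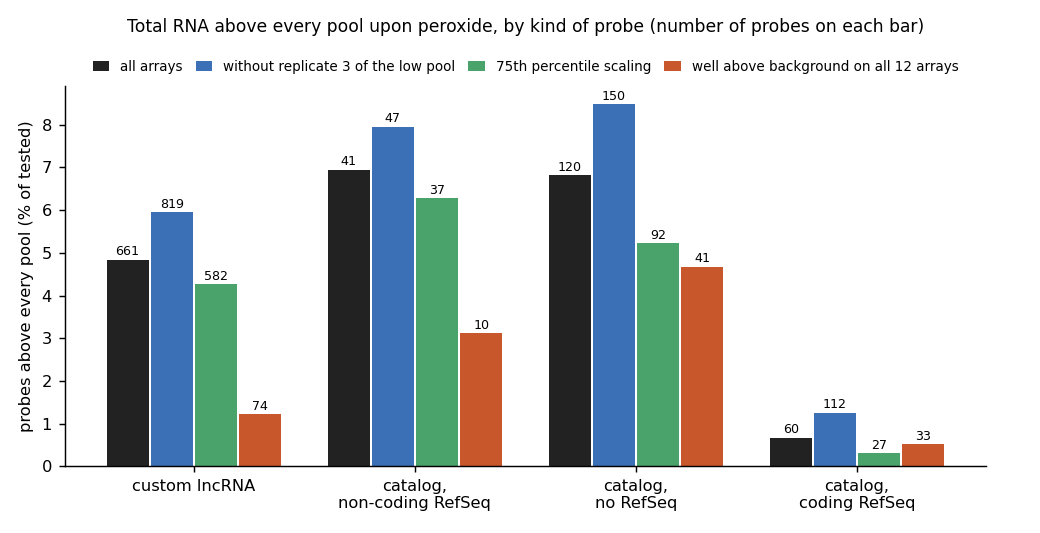
Share of tested probes called above every pool upon OS (percent, vertical axis) for 4 kinds of probe under 4 settings, with the number of probes on each bar; in the last setting testing was also restricted to probes well above background on all 12 arrays. Coding catalog probes have the lowest share in every setting, from 0.304% under 75th percentile scaling to 1.26% without replicate 3 of the low pool.

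Small nucleolar, Cajal body and spliceosomal RNAs, which guide modification of ribosomal and spliceosomal RNA or splice mRNA, contributed 10 calls among 32 tested probes (31.3%) and none below. Called above were 1.97% of all tested mRNA probes and 6.95% of those with only a non-coding accession. The list was added after values had been seen. Their median size was 0.54, against -0.63 over all mRNA probes, and stayed above 0 under 75th percentile scaling (0.71), where 9 were called. Of the probes well above background on all 12 arrays and tested among themselves 3 were called. The untranslated pool was the highest pool for 26 of the 32, and for 27 without replicate 3 of the low pool. SNORA12 read 7.49, 7.79 and 7.68 in total RNA and 2.98 to 4.43 over the gradient, where no pool was above background apart from replicate 3 of the low pool, at least 2.30-fold. SNORD116-19 was detected everywhere, with 11.98, 11.86 and 12.07 in total RNA, 9.98, 9.53 and 9.82 in the untranslated pool and at most 7.07 in the low and high pools, a 4.56-fold difference (adjusted p = 8.5e-06). The groups were separate in both cases.

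The other called members were SCARNA10 (2.55), SNORA74A (2.41), SNORA53 (2.20), SNORA28 (2.18), RNU105A (1.57), SNORA26 (1.55), SNORA2A (1.22) and SNORD3B-1 (0.99), all sizes in log2 units. SCARNA13 read 9.60, 9.55 and 9.48 in total RNA and 4.83, 3.20 and 10.98 in the low pool. Replicate 3 of that pool alone lay above total RNA, and the difference of 3.21 was not called with it (adjusted p = 0.259) but was 4.28 without it (adjusted p = 5.81e-07). RNU2-2 and SNORA71A gave the reverse, with differences of -2.74 and -2.82. Labelling began from an oligo-dT primer while mature small nucleolar RNAs carry no poly(A) tail. Whether these probes read mature RNAs or longer precursors was not tested.

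The lncRNAs that host small nucleolar RNAs in their introns gave no call, and 11 of their 13 tested probes were highest in the untranslated pool among the pools. Their median size was -1.06, with SNHG6 at -1.71. The 73 probes of cytosolic ribosomal proteins behaved alike in that 62 (84.9%) had the untranslated pool as highest, beside 29.8% of all tested mRNA probes, and their median was -0.45. The 1 call among them was an RPS27 probe without RefSeq accession, which lies apart from the coding probe of that gene (sizes 2.61 and -0.35). Its pools were not well above background, so it was at least 1.25-fold higher in total RNA. The 3 mitochondrially encoded probes were all highest in the untranslated pool. Replication-dependent histones, with 25 probes and a median of -1.22, had 17 probes highest in the untranslated pool (14 without replicate 3 of the low pool) and none in the high pool.

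No probe of the stress response lists was called above or below every pool. Of all tested coding probes only 0.675% were above, and of all tested mRNA probes 0.187% were below. Lists of this size may hold no call at such shares, so their absence says little about these genes. The high pool was the highest for 22 of the 36 immediate early probes (median size -0.69), with IER5 at -1.46 and ZFP36L1, an mRNA decay factor, at -1.44. It was also the highest for 16 of 22 probes of heat shock proteins and chaperones (median -0.70) and for 14 of 21 of the p53 response (median -0.59). Over all tested mRNA probes the share was 46.8% and the median size -0.63. When replicate 3 of the low pool was left out the high pool was highest for 22, 16 and 11, beside 42.8%. Antioxidant and metal response genes (28 probes) had a median of -0.66 and MT1X, a metallothionein, a value of -1.78. Nuclear-encoded subunits of the respiratory chain (57 probes) had a median of -0.82. In 23 of 26 probes for SR proteins, CLK kinases and related splicing factors the high pool was highest, and DDX17 was the call in the list, joined by 1 more without replicate 3 of the low pool. Zinc finger transcription factors, 307 probes with a median of -0.40, held calls above for ZNF292 (1.31) and ZNF254 (0.68) and below for ZNF713. The pools of ZNF292 were not well above background and the bound allows no fold. ZNF254 reversed to -0.31 under 75th percentile scaling, and ZNF713 was not called without replicate 3 of the low pool (adjusted p = 0.0517).

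Extracellular matrix genes were the coding list with the most calls, 8 of 43 probes (18.6%) and none below, beside 0.675% above among all tested coding probes. The median size was 0.29, but it was -0.36 with no call under 75th percentile scaling, when the median of all mRNA probes was -0.98. The total RNA mean was above all pool means for 29 of the 43 probes, beside 13.5% of all mRNA probes. LAMB2, a laminin of basement membranes, read 13.63, 13.67 and 13.71 in total RNA, 12.54, 12.46 and 12.55 on the untranslated arrays, 11.83, 11.83 and 12.44 on the low arrays and 12.44, 11.73 and 12.43 on the high arrays. The total RNA arrays stood above the 9 others by a size of 1.16 (adjusted p = 0.000944). POSTN, a matricellular protein, had 1.07, the collagens COL12A1, COL6A3, COL5A1 and COL16A1 had 1.00, 0.94, 0.92 and 0.86, the thrombospondin THBS1 had 0.77 and the nidogen NID1 0.71. Further probes of COL6A3, COL5A1 and COL16A1 were not called, with 0.67, 0.45 and -1.61. Without replicate 3 of the low pool 11 probes were called, and with quantile normalisation over all probes together 5.

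**Figure D4:**
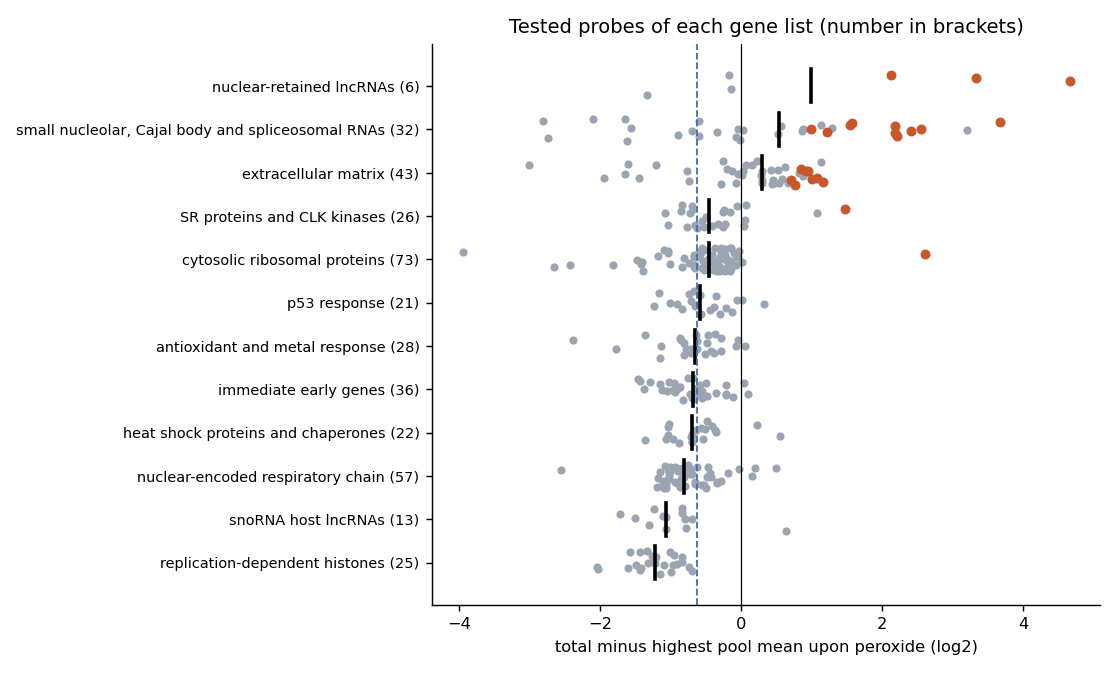
Total RNA minus the highest pool mean upon OS (log2, horizontal axis) for every tested probe of 12 gene lists; orange points were called above every pool, black bars are list medians, and the dashed line is the median of all mRNA probes (-0.63). The medians of the nuclear-retained, small nucleolar and extracellular matrix lists lie above 0, that of the last falling to -0.36 under 75th percentile scaling.

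Transcripts below every pool were few. Among the 21 mRNA probes the untranslated pool was the highest for 16, the low pool for 3 and the high pool for 2, whereas among the 5 lncRNA probes the high pool was the highest for 3 and the low pool for 2. The catalog probe A_33_P3287105, which has no gene name in the files, read 8.24, 7.87 and 8.53 in total RNA and 12.90, 13.20 and 12.98 in the untranslated pool, with 8.99 to 10.00 in the low and high pools. POLR2J2, an RNA polymerase II subunit, read 9.30, 8.79 and 9.70 in total RNA, 13.59, 13.72 and 13.64 in the untranslated pool and 10.28 to 10.89 in the others. ZDHHC20, a palmitoyltransferase, read 5.83, 5.97 and 6.17 against 9.71, 10.00 and 10.13 in the untranslated pool and 7.03 to 7.45 elsewhere. In all 3 the total RNA arrays were lowest without overlap. Relative to the lowest pool the differences were -1.34 (adjusted p = 0.000326), -1.18 (0.000295) and -1.19 (3.39e-05). TCEA1, an elongation factor of RNA polymerase II, was -0.93 below its lowest pool, while another TCEA1 probe was not called. None of these 4 was called under 75th percentile scaling.

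The custom lncRNAs below every pool were ENST00000414762.1, ENST00000343987.2, ENST00000553259.1 (both probes) and ENST00000444410.1, by -0.88, -0.84, -0.80 and -0.67, and -0.69. ENST00000343987.2 read 10.09, 10.16 and 10.39 in total RNA, 11.12, 11.49 and 11.52 on the untranslated arrays, 11.40, 10.97 and 10.79 on the low arrays and 12.27, 12.27 and 12.12 on the high arrays. Here the high pool was the highest, and no gradient array overlapped total RNA. With no normalisation between arrays 1 lncRNA probe was called below. Without replicate 3 of the low pool 53 were, these 5 among them.

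Among the called mRNA probes the untranslated pool was highest for 100, the low pool for 46 and the high pool for 75, so that 45.2% had the untranslated pool, beside 29.8% of the tested probes. Leaving out replicate 3 of the low pool gave 136, 61 and 112, with 44.0% against 28.6%. Among called lncRNA probes the numbers were 206, 226 and 229, which are 31.2%, 34.2% and 34.6%, beside 37.4%, 22.9% and 39.7% of the tested probes. Without that array they were 34.8%, 32.8% and 32.4%, beside 29.5%, 40.0% and 30.6%, so each of the 3 pools changed sides of its tested share. The difference between the categories was not tested. The median GC content of the called probes was 40% for lncRNA and 43.3% for mRNA probes, against 43.3% and 45% of the tested probes, and its part in the calls was not tested.

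The lncRNA category as a whole was less abundant relative to mRNA in total RNA than in the untranslated pool. With all probes normalised together, the median of the tested lncRNA probes minus that of the tested mRNA probes was -2.27 ± 0.05 in total RNA, -1.62 ± 0.05 for untranslated, -2.17 ± 0.13 for low and -2.72 ± 0.05 for high arrays (log2, SD, n = 3). The difference of total RNA was -0.65 from the untranslated pool and 0.45 from the high pool, each with p = 0.1 in an exact two-sided permutation test, the smallest that 3 arrays against 3 allow (0.15 adjusted over the 3 pools). It was -0.10 from the low pool (exact p = 0.3), and -0.17 without replicate 3 of that pool.

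The same test in the control cells asked how much of this was seen without peroxide. There 755 lncRNA probes (6.26% of 12055 tested) and 476 mRNA probes (4.40% of 10821) were above every pool. The OS calls included 383 of these lncRNA probes, 57.9% of the OS and 50.7% of the control calls. For mRNA probes 169 were shared, 76.5% of the OS and 35.5% of the control calls. These shares count a probe that did not pass the detection filter of the other condition as not shared. In both categories, most OS calls that were not shared had not been tested in control cells. Most control calls that were not shared had been tested upon OS. The shares of OS calls thus do not show that the remaining calls were absent without peroxide. The named probes of KCNQ1OT1, MALAT1 and MEG3 and those of all 8 named custom transcripts above every pool were called in control cells too. MALAT1 was 3.92 above its highest pool in control and 3.33 upon OS, KCNQ1OT1 3.73 and 4.67, and ENST00000510619.2 5.18 and 6.64. The contrast between the conditions, which sets total RNA minus the mean of the 3 pools (the excess) upon OS against that in control, passed no threshold for these (adjusted p = 0.965, 0.224 and 0.572).

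The excess of total RNA over the pools was larger upon OS for 219 lncRNA (1.54% of 14236 tested) and 61 mRNA probes (0.533% of 11448). It was smaller for 237 (1.66%) and 303 (2.65%). With replicate 3 of the low pool left out the counts were 429 (3.00%) and 188 (1.64%) larger and 568 (3.97%) and 638 (5.57%) smaller. Over both categories 280 (1.09%) were larger and 540 (2.10%) smaller, and 617 (2.40%) and 1206 (4.68%) when that array was left out. Under 75th percentile scaling with that array kept they were 298 and 196. The balance of directions thus depended on the scaling while that array was kept. Among coding catalog probes 27 were larger and 237 smaller of 8972 tested. Of 606 catalog probes with only a non-coding accession 10 were larger and 17 smaller, and of 1870 with none 24 and 49. The share with a smaller excess was thus not particular to coding probes. For the coding probes, leaving out replicate 3 of the low pool gave 106 and 518, including all 237. With 75th percentile scaling and without that array they numbered 71 and 372. With it in place, the 75th percentile scaling gave 21 larger and 24 smaller.

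The named transcripts with the most positive differences were detected in total RNA upon OS and not in control total RNA, and 5 of these 6 were in no OS pool once replicate 3 of the low pool was set aside. A probe detected in 1 group alone could enter the test only through that group. For such probes the adjusted p describes the call and does not support it, and the size rests on undetected signals. Of all probes with a larger excess, 161 of 219 lncRNA and 27 of 61 mRNA probes were above every OS pool. Among all tested probes 4.84% and 1.97% were. Both calls use the same OS arrays, so this overlap does not support either. The total RNA arrays of ENST00000558633.1 read 8.88, 8.33 and 8.97 upon OS and 3.27, 3.26 and 4.51 in control, none of the latter well above background. Its gradient arrays upon OS read 3.23 to 3.87, except 6.04 on replicate 3 of the low pool, and the excess differed by 4.71 (adjusted p = 4.21e-05). LOC729444 read 7.85, 7.88 and 7.78 in total RNA upon OS, 3.49, 3.46 and 3.58 in control, and 2.98 to 4.18 over the OS gradient, a difference in excess of 4.39. Of the other probes of LOC729444, 1 of 3 was tested and it was above every OS pool by 1.34. LOC152578, now LINC01618, and ENST00000500682.1 were similar, with differences of 3.64 and 4.13. ENST00000446073.1 had 3.76 and LOC723809, now LHFPL3-AS2, had 3.54. The last was well above background on all 3 low arrays and 1 high array. Without replicate 3 of the low pool all 6 passed the same test.

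The named transcripts with the most negative differences were detected in control total RNA and on no OS total RNA array. Where detection was limited to that 1 group, the same limit on the test and the size holds. ENST00000339009.5 read 6.84, 6.56 and 6.92 in control total RNA and no more than 3.22 upon OS, with a difference in excess of -3.64. ENST00000415340.1 had -3.39 and ENST00000507938.1 -3.13. A probe without RefSeq accession for GPAM, an acyltransferase of glycerolipid synthesis, read 7.07, 6.87 and 7.37 in control and 3.12, 4.08 and 3.17 upon OS (difference -3.63). The coding probe of GPAM was detected in total RNA upon OS at a mean of 8.90. The DIP2C probe with a difference of -3.44 also had no RefSeq accession. Of the coding probes of DIP2C, 1 was detected on all 3 OS total RNA arrays and the other on 2. The pseudogene HERC2P4 had -3.09.

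Coding transcripts that were detected on all 24 arrays were looked at apart from these. Of 5779 such probes 211 had a smaller excess upon OS and 10 a larger one, beside 237 and 27 of all 8972 tested coding probes. The more frequent direction was thus the same as over all coding probes. The 20 genes with the most negative differences, chosen after values were seen, are described without a test. They encode large structural, motor, adhesion and ubiquitin ligase proteins: the collagens COL12A1 (-2.58), COL6A3 (-2.36), COL5A1 (-2.27) and COL4A2 (-2.19), the dynein heavy chain DYNC1H1 (-2.43), the cytolinker PLEC (-2.41), reelin RELN (-2.40), tenascin TNC (-2.29), the atypical cadherin FAT1 (-2.12), utrophin UTRN (-2.08), LAMB2 (-1.87), NID1 (-1.86), the ubiquitin ligases HUWE1 (-1.85), UBR4 (-1.75) and MYCBP2 (-1.73), the receptors NOTCH3 (-1.84) and NOTCH2 (-1.74), filamin FLNA (-1.82), GLG1 (-1.78) and the spliceosomal helicase SNRNP200 (-1.71).

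The change lay more in the pools than in total RNA. DYNC1H1 read 15.19, 15.09 and 15.15 in control total RNA and 14.36, 14.41 and 14.47 upon OS. Its untranslated pool went from 12.13, 12.17 and 12.19 to 14.38, 14.38 and 14.41, its low pool from 11.85, 12.03 and 11.81 to 13.49, 13.60 and 13.56, and its high pool from 12.69, 12.47 and 12.13 to 13.79, 13.29 and 13.83. Every gradient array upon OS was above every control gradient array, and every total RNA array upon OS was below every control one. All 20 genes had a lower mean in total RNA upon OS (median difference -0.51) and a higher mean in the untranslated (2.00), low (1.50) and high pool (1.07). The signs were the same for all 20 with 75th percentile scaling once replicate 3 of the low pool was left out. With that array and this scaling, 13 of the 20 were higher in the low pool. The genes were chosen for a smaller excess, which itself favours lower total RNA and higher pools, so these signs partly restate the choice. Of the 5779 coding probes detected on every array, 2855 were higher upon OS in total RNA. In the untranslated, low and high pools 2535, 2146 and 2878 were higher. With 75th percentile scaling and without replicate 3 of the low pool these numbers were 1041, 2639, 972 and 2192.

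COL12A1 showed the same in the extracellular matrix list, with 16.28, 16.29 and 16.31 in control total RNA, 15.67, 15.69 and 15.53 upon OS, and 12.43, 12.40 and 11.76 going to 14.40, 14.33 and 14.35 in the untranslated pool. Of the 43 matrix probes 16 had a smaller excess and none a larger one, beside 237 and 27 of the 8972 tested coding probes. Their median excess was 1.84 in control and 0.96 upon OS. The median difference of level between OS and control was -0.09 in total RNA, 1.15 for the untranslated, 0.78 for the low and 0.42 for the high pool, where all mRNA probes had -0.03, -0.03, -0.17 and -0.01. Smaller excesses were called for 4 matrix probes under 75th percentile scaling and for 19 when replicate 3 of the low pool was also left out.

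The genes behind the 237 coding probes with a smaller excess were long, with a median span of 75.8 kb from first to last base including introns, against 28.8 kb for all tested coding genes and 17.3 kb for the 27 with a larger excess. Spans came from RefSeq on GRCh38.p14 and were found for 98.3%, 97.8% and 85.2% of the probes. For the 60 coding probes above every pool the median span was 35.6 kb. Lengths of the mature transcripts were not used here, and the part of length in the calls was not tested.

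**Figure D5:**
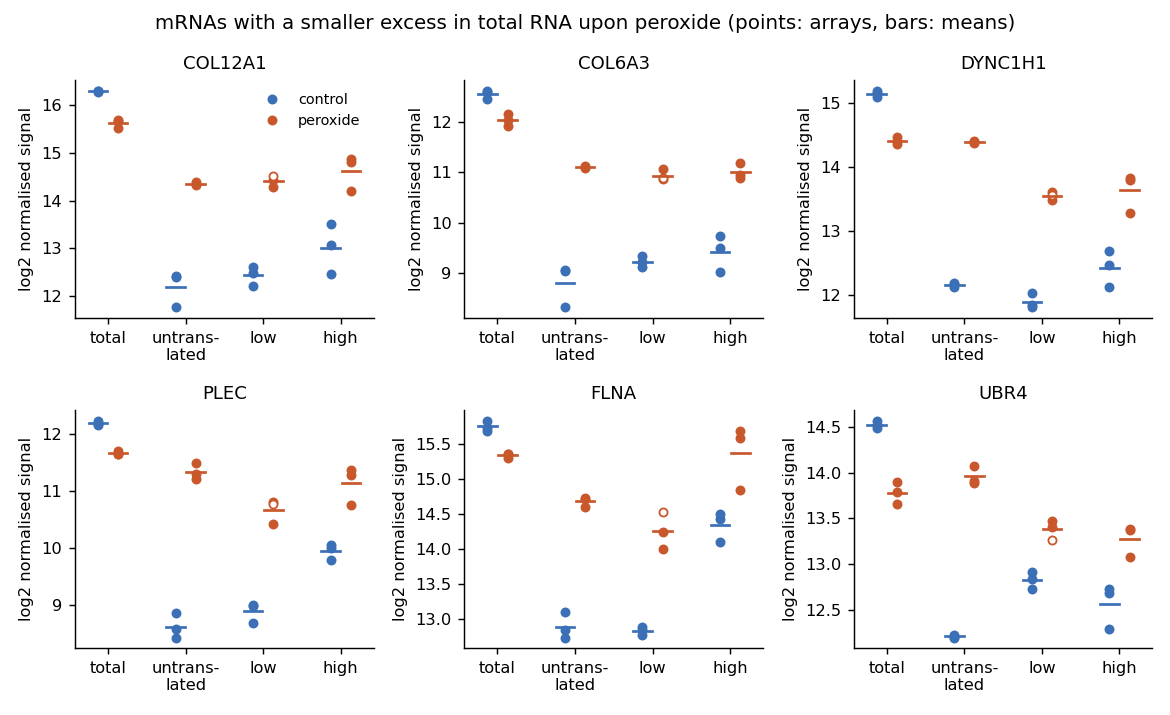
Log2 normalised signal of 6 of the 20 coding genes on each control (blue) and OS (orange) array by fraction; points are arrays, bars are means (n = 3), and the hollow point is replicate 3 of the low pool upon OS. In each panel the OS points lie below the control points in total RNA and above them in the 3 pools.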

How the data were processed

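The authors deposited Feature Extraction 10.7.3.1 output with background-subtracted intensity per spot (design on GRCh37), and a table of log2 values per probe that equals quantile-normalised log2 processed signal within 0.00145. The labels also name Partek, with no version. Control spots and 178 probes with an outlier mark were left out, leaving 43911 lncRNA and 17448 mRNA probes, and no probe spot was saturated. The log2 processed signal was quantile-normalised per category. Limma 3.58.1 (R 4.3.3) fitted 1 linear model with 8 groups to the 24 arrays, with Benjamini-Hochberg adjustment across lncRNA and mRNA probes together. Testing required a probe to pass the scanner's detection mark throughout 1 or more of the compared groups, 4 for the OS cells and 8 for the conditions. The number of arrays, 3 per group, limits the precision. The deposited design states independent RNA preparations but not separate cultures, so p-values measure the spread between these samples.

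Bounds compare the total RNA mean with the highest pool mean after the arrays of a pool detected on none of them were raised to each array's lowest well-above-background signal. Named probes were, per category, the 8 largest sizes above every pool, the 4 most negative below, the 3 most positive and negative differences between conditions, all without overlap of arrays, up to 3 called or otherwise 2 members of each list, and MALAT1, NEAT1 and GAS5. No probe was matched to NEAT1. Of the named probes, 1 is not reported here. Members, lists and rules were chosen with earlier results of these data known. The small nucleolar list and the rule for the 20 coding genes were added later. Current symbols came from a RefSeq table and 12851 of 17535 catalog probes had one. The steps were tested on simulated data. Alternatives were other normalisations and filters, the deposited table, scan date and replicate as blocks, averaging probes, no moderation, only the 12 OS arrays, leaving out the low pool and leaving out each OS array. Further settings for the matrix, small nucleolar and nuclear-retained lists and for the coding probes were chosen after seeing the data.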

Additional observations from a re-analysis of the deposited data

Results flagged for a closer look

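For 19 named probes the excess of total RNA over the mean of the pools differed between OS and control cells in the limma contrast of the conditions. The excess was larger upon OS for ENST00000558633.1 (by 4.71), LOC729444 (4.39), ENST00000500682.1 (4.13), ENST00000446073.1 (3.76), LOC152578 (3.64), LOC723809 (3.54) and ENST00000584721.1 (2.67), all log2 differences. Of these, ENST00000584721.1 was above every pool in both conditions, with 7.06, 7.09 and 7.45 in control total RNA and 10.18, 10.37 and 9.82 upon OS.

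The excess was smaller upon OS for DDX17 (-1.19), MEG3 (-1.25), ZNF292 (-1.51), LAMB2 (-1.87), COL6A3 (-2.36) and COL12A1 (-2.58), which stayed above every pool in both conditions. It was also smaller for HERC2P4 (-3.09), ENST00000507938.1 (-3.13), ENST00000415340.1 (-3.39), DIP2C (-3.44), GPAM (-3.63) and ENST00000339009.5 (-3.64), which were not well above background on any total RNA array upon OS. For MEG3 total RNA fell from 16.16, 16.02 and 16.11 in control to 15.68, 15.70 and 15.30, while the high pool went from 10.78, 10.93 and 11.01 to 12.10, 11.68 and 11.84. No explanation was tested.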

How the results depend on the processing

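The direction of the calls was kept throughout, with more probes called above than below every pool under every alternative. Only the stricter filter removed probes detected in total RNA alone, which favour calls above (74 and 84 above, 3 and 23 below). The means without a test, given above, did not keep this direction when replicate 3 of the low pool was left out. Leaving out each OS array in turn gave 546 to 819 lncRNA probes above and 2 to 53 below, 175 to 309 mRNA probes above and 12 to 53 below, and 197 to 617 larger and 326 to 1206 smaller excesses. The highest values came without replicate 3 of the low pool, and the other changes over 1.5 times were 343 and 326 smaller excesses without replicates 1 and 3 of OS total RNA, 12 mRNA probes below without its replicate 2, and 2 lncRNA probes below without replicate 1 or 2 of OS total RNA or replicate 1 of the low pool and 3 without replicate 3 of OS total RNA, any replicate of the untranslated pool or replicate 2 or 3 of the high pool.

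LncRNA probes above every pool numbered 141 without normalisation between arrays, 74 with only probes well above background in all 4 OS groups and 437 with probes averaged per transcript. The mRNA probes above were 63 and 84 under the first 2 of these. With only the 12 OS arrays in the fit, 531 lncRNA and 166 mRNA probes were above every pool. LncRNA probes below numbered 3 with quantile normalisation over all probes together, with the deposited table, with the stricter filter and without a filter, 1 without normalisation, with normexp and with only the 12 OS arrays, and 44 with the low pool left out. The mRNA probes below were 12 with joint normalisation and with the deposited table, 1 with 75th percentile scaling, 6 with only the 12 OS arrays and 53 with the low pool left out. Larger excesses numbered 57 without normalisation and 68 with the stricter filter, and smaller ones 196 with 75th percentile scaling. The stricter filter tests fewer probes; otherwise the cause was not tested.

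The category difference between total RNA and the highest pool (-0.65) was -0.83 with 75th percentile scaling or no normalisation, -0.47 with normexp, -1.06 with the stricter filter, -0.43 without a filter and -0.70 to -0.62 without single arrays. ZNF254 reversed to -0.31 under 75th percentile scaling. Of 41 named probes called, 16 stayed called in every alternative. Arrays of the same replicate number deviated together with r from -0.03 to 0.27, so the numbers were not taken as pairs. With the replicate block the counts were 668 and 223 above, 3 and 21 below, 285 larger and 539 smaller, and the category difference was -0.65.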
